A study of Homo sapiens with 8 samples.

Results

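The MYC neighbourhood of chromosome 8q24 was described from H3K27ac ChIP-seq peaks of HCEC-1CT cells, an immortalised line of human colonic epithelial cells. All peaks of chr8:126500000-129500000 (hg38) were taken, a window that holds MYC, PVT1, CASC8 and CCAT1. Peaks that overlapped or touched were merged over the 6 libraries, and 266 of the 143733 merged intervals had their centre in this window. There were 3 libraries of WT cells and 3 of CREBBP-KO cells ("CBP KO" in the labels), numbered as replicates of their genotype. The study's ChIP methods name no treatment of the cells and do not say whether these libraries came from separate cultures. Both genotypes carry a doxycycline-inducible Cas9 by the study's methods, which call the KO lines monoclonal and also describe several clones pooled together with a matched parental pool. The lists hold peaks and no reads over the edited exons, so the loss of CREBBP could not be checked in them. Libraries of 1 engineered line are the replicates here, and p-values measure the spread between those libraries.

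MYC encodes a transcription factor that pairs with MAX and drives growth and division genes. It sits in a gene desert where enhancers lie far from their target, and its expression in the colon and in many cancers depends on such distal elements. The block of long non-coding RNA genes upstream of it, which includes CCAT1 and CASC8, is known for enhancers active in colorectal cancer. PVT1, the long non-coding RNA gene downstream, holds further enhancers and a promoter that can compete with that of MYC for them. CCDC26, further downstream, is a long non-coding RNA gene whose introns hold enhancers of MYC in blood cells. H3K27ac marks active promoters and enhancers, and CREBBP and its paralogue EP300 are the main enzymes that write it.

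Each peak comes with a fold, the height of its summit over the local background as the authors' peak caller gave it. Folds of separate libraries have no common scale, so each was also ranked in its own list and given as a percentile, where 100 is the highest peak of the list. Ranks within a list cannot show a change in the global level of the mark, so calls on ranks are relative to the list. An interval was described in each library by its highest peak. The lists held 86163 to 93567 peaks in WT and 99008 to 111697 in CREBBP-KO cells, and the read depth behind them is unknown. Correlations of the rank scores of the intervals tested in the window lay between 0.900 and 0.937 within a genotype and between 0.742 and 0.822 across genotypes, a description over 59 intervals of shared libraries. The label of colonic epithelium was checked by peaks within 1 kb of any annotated transcript start. Of 6 epithelial markers 3 (KRT8, EPCAM, CDH1) had a peak in all 6 libraries, and KRT19 and CLDN4 had none in any. The EPCAM peak was weak, at percentile 0.174, 7.27 and 8.36 in WT and 19.7 to 46.1 in CREBBP-KO libraries. KRT8 lay at percentile 32.9 to 73.5 and CDH1 at 75.5 to 90.8. None of 5 intestinal markers (CDX1, CDX2, VIL1, LGR5, HNF4A) had a peak in any library, whereas all 4 mesenchymal markers (VIM, ZEB1, COL1A1, PDGFRB) had one in all 6, at percentile 93.3 or higher. PTPRC and CD3E of blood and CDH5 of endothelium had none, and PECAM1 had one in all 6, at percentile 34.7 to 62.8. In percentile, all 3 CREBBP-KO libraries stood above all 3 WT libraries at the 4 mesenchymal markers and at KRT8 and EPCAM, while CDH1 overlapped. The rank scores of 24.8 percent of all tested intervals were apart in this direction. At the 5′ end of KRT8 itself CREBBP-KO 2 had no peak, and CREBBP-KO 1 and 3 stood at 54.2 and 34.6, against 32.9 to 57.7 in WT. KRT18 also had no peak in CREBBP-KO 2. CDH1 and PECAM1 had no peak at their own 5′ end in any library, so their percentiles come from other transcript starts. For PDGFRB the 5′ end itself was lower and the genotypes overlapped (exact permutation p = 0.2). Its WT libraries stood there at percentile 83.7, 80.1 and 77.9, and its CREBBP-KO libraries at 84.4, 88 and 80.7. EPCAM, VIM, ZEB1 and COL1A1 had the same percentiles at their 5′ end as at any start. The part of these marker differences in the results below was not tested.

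The window held 216, 205 and 207 peaks in the WT libraries and 254, 225 and 195 in the CREBBP-KO libraries. The groups overlapped, and the difference of 15.33 peaks had an exact permutation p of 0.6. Without CREBBP-KO 1 it shrank to 0.667. Peaks covered 401.8, 420.6 and 397.6 kb in WT and 444.8, 443.3 and 472.4 kb in CREBBP-KO cells. The covered length was thus larger in all 3 CREBBP-KO libraries, at 453.5 ± 16.4 kb against 406.7 ± 12.3 kb (SD, n = 3), with an exact permutation p of 0.1, the smallest that 3 libraries against 3 allow. Over the whole genome the covered length overlapped between genotypes, at 163.5 ± 9.73 Mb and 156.2 ± 6 Mb (SD, n = 3; exact permutation p = 0.4). The median percentile of the window's peaks was higher in all 3 CREBBP-KO libraries, at 47.8 ± 0.651 against 42.2 ± 1.93 in WT (SD, n = 3; exact permutation p = 0.1). The median fold of these peaks overlapped between genotypes (3.79, 4.02, 3.94 for WT libraries, 3.91, 3.99, 4 for CREBBP-KO libraries). Whole lists had a lower median fold in every CREBBP-KO library (4.02, 4.07, 4.1) than in any WT library (4.32, 4.34, 4.46). The share of this list difference in the percentile difference was not tested. The height of the tallest peak did not separate the groups, with folds of 28.1 to 32.1 in the WT and 28.5 to 31.7 in the CREBBP-KO libraries.

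**Figure D1:**
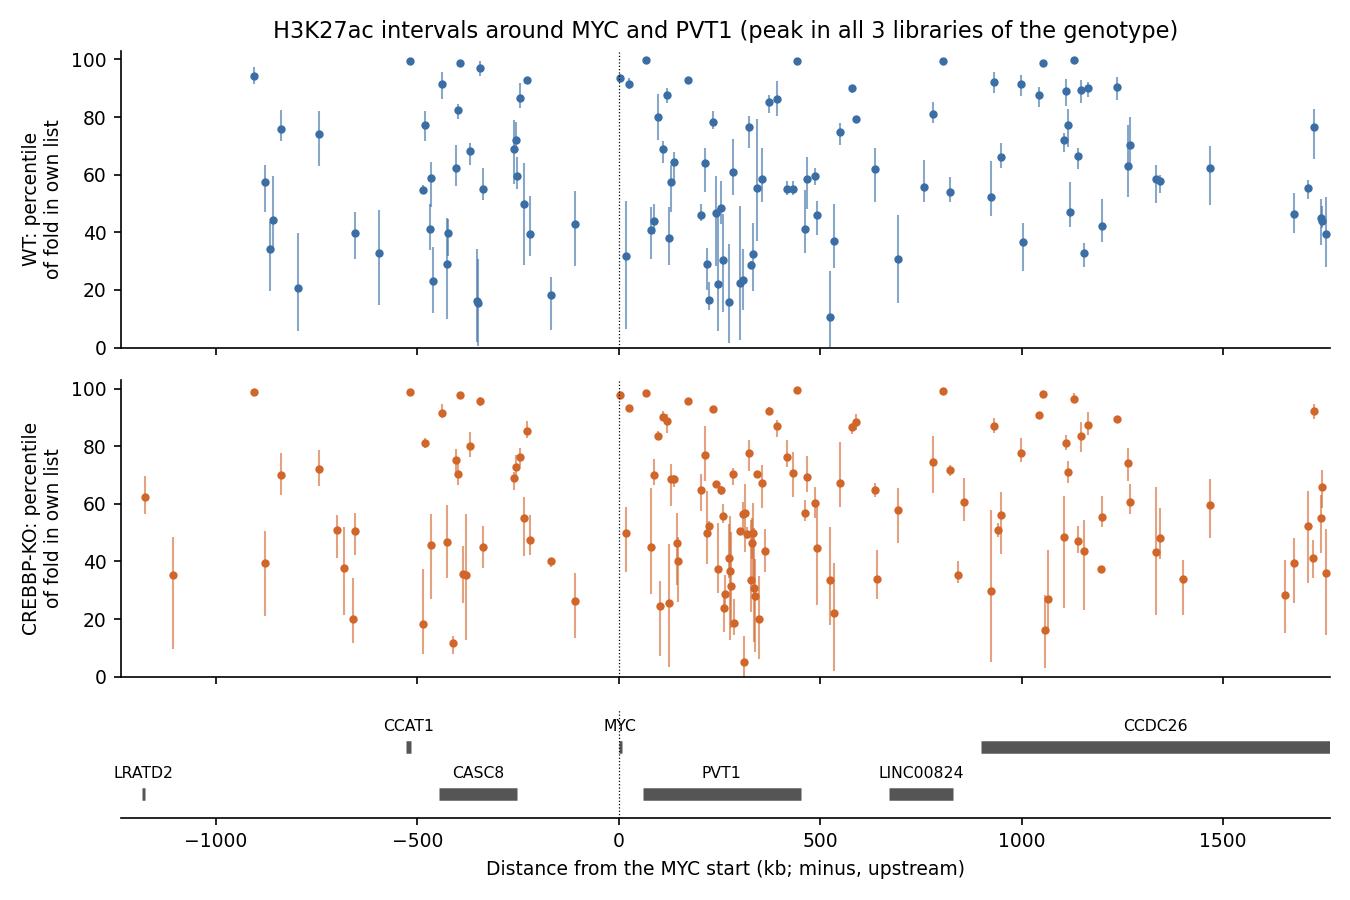
Percentile of the fold of each interval's highest peak in its own list, against the distance of the interval's centre from the MYC start in kb, for intervals with a peak in all 3 libraries of the genotype (upper panel WT, middle panel CREBBP-KO). Points are means of 3 libraries, vertical lines run from the lowest to the highest library, and bars at the bottom are gene records. Peaks crowd over PVT1 in both genotypes, and intervals above percentile 90 are spread over the whole window.

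Of the 266 intervals, 102 had a peak in all 6 libraries and 59 of these also reached a fold of at least 5 in all 3 libraries of a genotype. Those 59 entered the limma fit over all 34864 such intervals of the genome, on normal scores of the rank (a difference of 1 is 1 SD of a library's scores). At an adjusted p under 0.05, 7 intervals (11.9%) were higher in CREBBP-KO cells, where 18.6 percent of all tested intervals were, and 14 (23.7%) were lower, where 18.7 percent were. The other 38 did not pass. Of the calls, 2 higher ones reached the fold of 5 through CREBBP-KO libraries alone and 4 lower ones through WT libraries alone, so the filter itself favoured a difference there. In 13 (22%) the rank scores of all 3 CREBBP-KO libraries were above those of all WT libraries, against 24.8 percent of all tested, and in 16 (27.1%) they were all below, against 23.3 percent. The median shift, CREBBP-KO minus WT, was -0.14 in the window and 0.02 over all tested intervals. The split depended on the scale. Fitted on log2 fold, the median of all intervals moved up by 0.13. There 13 intervals of the window (22%) were higher, against 28 percent of all tested, and 8 (13.6%) were lower, against 13.1 percent.

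**Figure D2:**
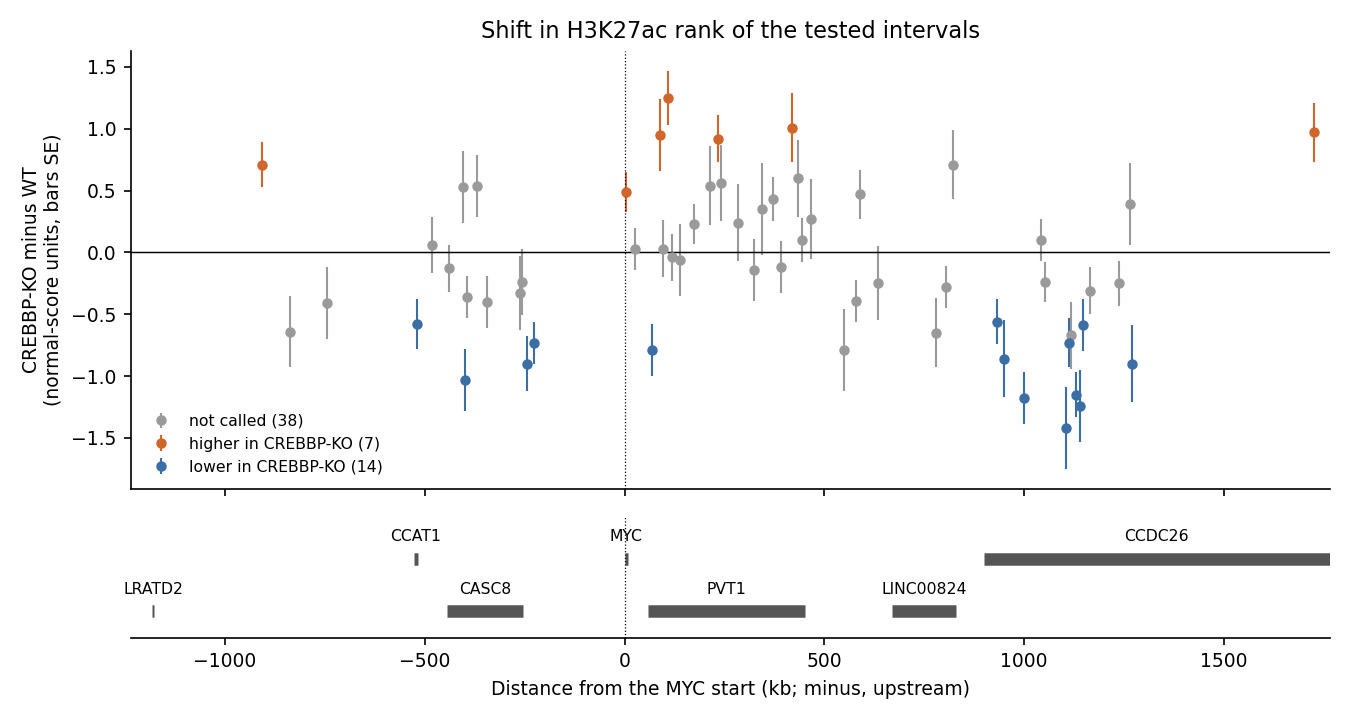
Shift of the 59 tested intervals, CREBBP-KO minus WT in normal-score units with SE from limma, against the distance of the interval's centre from the MYC start in kb. Orange points are the 7 called higher, blue points the 14 called lower and grey points the 38 not called. Higher calls lie at MYC, inside PVT1 and near both ends of the window, and lower calls lie mostly upstream of MYC and over CCDC26.

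The MYC promoter gained rank in CREBBP-KO cells. MYC (ENSG00000136997.22, chr8:127735434-127742951, plus strand) lay in a 10.3 kb interval, chr8:127733652-127743973, which also holds the start of the antisense gene CASC11. Its highest peak had a fold of 16.3, 13.4 and 14.8 in WT and of 20.1, 22.8 and 21.8 in CREBBP-KO libraries, with the summit 1.1 to 1.7 kb after the MYC start in all 6. All CREBBP-KO libraries were above all WT libraries. The percentile was 95.1, 92.2 and 93.1 in WT and 97.4, 98 and 97.4 in CREBBP-KO libraries, a difference of 4.12 points with an exact permutation p of 0.1. In the fit over all intervals the shift was 0.49 (SE 0.16, limma adjusted p = 0.0188). The adjusted p ranged from 0.00135 to 0.276 over the alternatives. The call was lost when GC content and interval length were accounted for (shift 0.28, limma adjusted p = 0.276), without the trend in limma (0.0601), without WT 2 (0.0721) and without CREBBP-KO 2 (0.0752). Over MYC with its 5 kb flanks, peaks covered 9.1 ± 0.177 kb in WT and 9.7 ± 0.312 kb in CREBBP-KO cells (SD, n = 3), without overlap (exact permutation p = 0.1).

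Between MYC and PVT1 there were 2 intervals, both with a peak in all 6 libraries. The stronger, chr8:127759451-127761738, had a fold of 12.7 to 14.4 in the WT and of 13.6 to 17.4 in the CREBBP-KO libraries. Its shift was 0.03 (SE 0.17, limma adjusted p = 0.896), and the groups overlapped.

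PVT1 (ENSG00000249859.14, chr8:127794526-128187101, plus strand) held 77 intervals in its 392.6 kb, 33 of them with a peak in all 6 libraries. That is 84.1 per Mb, against 57.1 at MYC with its flanks, 51 in the CCAT1-CASC8 block, 31.2 downstream of PVT1 and 7.07 upstream of CCAT1. Of its 18 tested intervals 13 had a positive shift and 5 a negative one, 4 were called higher (22.2%, near the 18.6 percent of all tested intervals) and 1 lower (5.56%, against 18.7 percent), and the median shift was 0.29. On log2 fold 7 were higher and 0 lower, where 28 and 13.1 percent of all tested intervals were. Without CREBBP-KO 1 there were 2 higher calls, where 14.1 percent of all tested intervals were higher. Peaks covered 172.5, 172.1 and 168.9 kb of the gene in WT and 230.4, 228.2 and 235.9 kb in CREBBP-KO libraries. Every CREBBP-KO library was thus above every WT library, by 60.3 kb on average, and the covered share of the gene was 43.6 ± 0.5% in WT and 59 ± 1.01% in CREBBP-KO cells (SD, n = 3; exact permutation p = 0.1). This comparison of stretches was chosen after the values were seen. The number of peaks in the gene overlapped between groups, at 83, 78 and 74 in WT and 101, 96 and 71 in CREBBP-KO libraries (exact permutation p = 0.4).

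The gain in covered length was spread along the gene. The mean covered length was larger in CREBBP-KO cells in 71 of the 77 intervals and smaller in 6. In 27 of them (35.1%) all 3 CREBBP-KO libraries were above all WT libraries, where 10.6 percent of all merged intervals were, and in 0 of them were they all below, where 7.65 percent were. The 5 intervals with the largest gains together gained 16.8 kb. The largest gain, 4.0 kb, lay in a 48.9 kb interval, chr8:127883816-127932670, 172.8 kb downstream of the MYC start. This interval was chosen after its values were seen. WT libraries divided it into 11, 8 and 8 peaks and CREBBP-KO libraries into 5, 5 and 4. The longest peak of the window lay in it in all CREBBP-KO libraries, at 41.9, 33.6 and 36.9 kb, whereas the longest in WT was 15.4, 16.0 and 15.2 kb (exact permutation p = 0.1 for the difference). Its highest fold was 14, 13.8 and 14.6 in WT and 16.6, 18 and 19.6 in CREBBP-KO libraries. Although the groups did not overlap, its shift of 0.23 did not pass the test (limma adjusted p = 0.254).

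**Figure D3:**
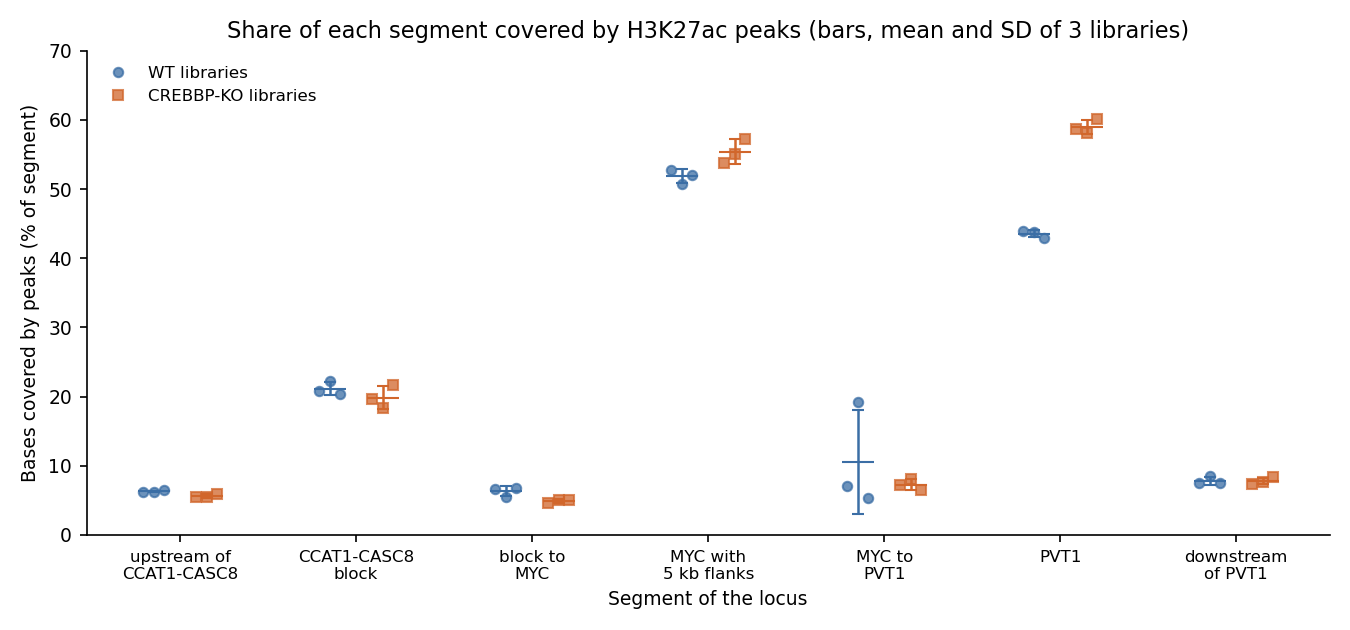
Share of each of 7 stretches of the window covered by H3K27ac peaks, in percent, with a point per library (circles WT, squares CREBBP-KO) and bars for the mean and SD of 3 libraries. Over PVT1 the WT libraries sit between 43 and 43.9% and the CREBBP-KO libraries between 58.1 and 60.1%.

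The start of PVT1 shared its merged interval with a taller intronic peak. The peak within 1 kb of the start had a fold of 14.7, 10.8 and 8.95 in WT and of 13.6, 17.1 and 20 in CREBBP-KO libraries. The percentile was 86.6 ± 6.83 in WT and 94.3 ± 2.19 in CREBBP-KO cells, and the groups overlapped (SD, n = 3; exact permutation p = 0.2). The taller peak of this interval, chr8:127793721-127814214, lay 74.6 to 74.7 kb from the MYC start. Its fold was 31.1, 32.1 and 25.4 in WT and 26.7, 25.9 and 21.5 in CREBBP-KO libraries. These percentiles, 99.4 to 99.9 in WT, were all above the 97.2 to 99.3 of CREBBP-KO libraries, and the interval fell by 0.79 in rank score (SE 0.21, limma adjusted p = 0.00491). The call was lost when peaks were ranked by their -log10 p (0.431) and on log2 fold (0.0947), within a range of 0.00127 to 0.431 over the alternatives.

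Inside PVT1, 4 intronic intervals rose in CREBBP-KO cells, and in each the groups did not overlap. The largest rise was at chr8:127839143-127849535, 108.9 kb downstream of the MYC start. Its fold was 6.85, 5.68 and 6.96 in WT and 12.1, 14.6 and 13 in CREBBP-KO libraries. This took it from percentile 69 ± 4.25 to 90.3 ± 1.62 (SD, n = 3), a shift of 1.25 (SE 0.22, limma adjusted p = 0.000218). At chr8:127962130-127973824, 232.5 kb downstream, the fold was 7.72, 7.93 and 9.65 in WT and 14.9, 15.4 and 15 in CREBBP-KO libraries. Its percentile went from 78.2 ± 3.35 to 92.8 ± 0.92 (SD, n = 3), a shift of 0.92 (SE 0.19, limma adjusted p = 0.000782). Both calls held under every alternative that scored the same intervals.

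The other 2 were weaker in WT cells. At chr8:127817592-127828509, 87.6 kb downstream of the MYC start, the fold was 4.29, 3.73 and 4 in WT and 6.8, 5.83 and 5.79 in CREBBP-KO libraries, a shift of 0.95 (SE 0.29, limma adjusted p = 0.0148). At chr8:128152402-128154098, 417.8 kb downstream, it was 4.52, 4.97 and 4.8 in WT and 8.62, 6.67 and 7.19 in CREBBP-KO libraries, a shift of 1.01 (SE 0.28, limma adjusted p = 0.00766). All WT values of this pair were under a fold of 5 and all CREBBP-KO values above it, so both entered the test through CREBBP-KO libraries alone, which favours a rise. With no fold filter their shifts were 0.76 and 0.67 (limma adjusted p = 0.0274 and 0.021). CREBBP-KO 1 was the highest library of each, and without it the adjusted p was 0.099 and 0.0611.

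Near the 3′ end of PVT1, chr8:128170296-128186745 was among the highest intervals of the window in both genotypes. Its fold was 26.3, 24 and 24.9 in WT and 30.8, 31.7 and 28.5 in CREBBP-KO libraries. The folds did not overlap but the percentiles did, between 99.3 and 99.7 in all 6 libraries, and the shift of 0.10 did not pass (SE 0.18, limma adjusted p = 0.693). On log2 fold its shift of 0.27 had an adjusted p of 0.0485, in a range of 0.0485 to 0.904 over the alternatives. The start of LINC02912 (TMEM75) inside PVT1 had a fold of 4.62 to 6.47 in the WT and of 5.96 to 11.4 in the CREBBP-KO libraries, which overlapped, with a shift of 0.54 (SE 0.32, limma adjusted p = 0.189).

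**Figure D4:**
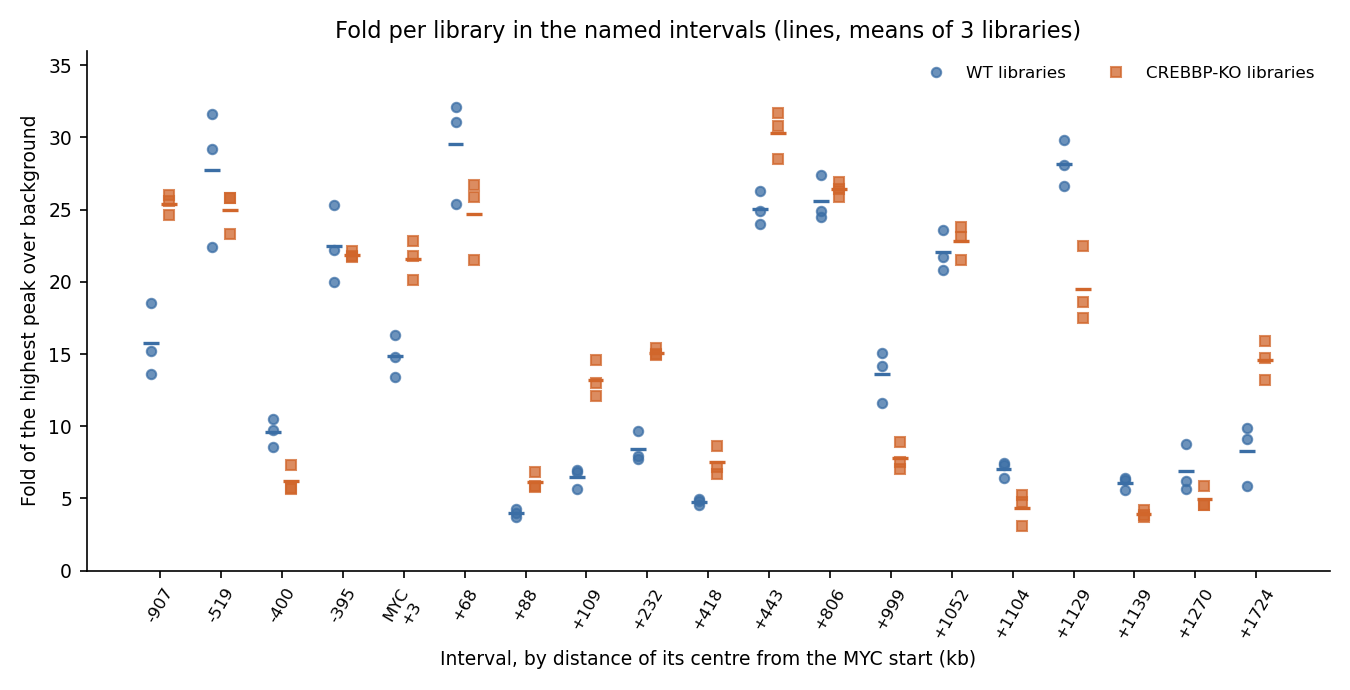
Fold of the highest peak over local background in each library (circles WT, squares CREBBP-KO, lines means of 3 libraries) for the intervals of the window named by rank or by shift, ordered by the distance of the centre from the MYC start in kb. At MYC the 3 CREBBP-KO libraries sit between 20.1 and 22.8, all above the WT libraries at 13.4 to 16.3, and at 1129 kb the WT libraries at 26.6 to 29.8 are all above the CREBBP-KO libraries at 17.5 to 22.5.

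Upstream of MYC the CCAT1-CASC8 block carried strong intervals in both genotypes. In the 274.8 kb block 37 intervals were found, of which 14 had a peak in all 6 libraries and 10 were tested. Of the 10, limma called 2 lower (20%, near the 18.7 percent of all tested intervals) and 0 higher, and the median shift was -0.29. On log2 fold 1 was higher and 1 lower, where 28 and 13.1 percent of all tested intervals were. Between the block and MYC both tested intervals were lower. In that 248.3 kb stretch peaks covered 16.7, 13.5 and 16.9 kb in WT and 11.5, 12.7 and 12.4 kb in CREBBP-KO libraries, without overlap (exact permutation p = 0.1).

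CCAT1, a long non-coding RNA gene named for its transcript in colon cancer, lay under a 25.4 kb interval, chr8:127204143-127229516, together with the 5′ end of CASC19. The fold there was 31.6, 29.2 and 22.4 in WT and 25.8, 23.3 and 25.8 in CREBBP-KO libraries. The groups overlapped in fold and in percentile, at 99.5 ± 0.6 and 98.7 ± 0.486 (SD, n = 3). The interval fell by 0.58 in rank score (SE 0.20, limma adjusted p = 0.0258), and the call was lost in 8 of the alternatives, with adjusted p from 0.00221 to 0.392. It was lost without WT 1 (0.112), WT 2 (0.108), CREBBP-KO 2 (0.115) or CREBBP-KO 3 (0.0624).

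Within CASC8 and POU5F1B, the intronic interval chr8:127334636-127336695, 399.8 kb upstream of the MYC start, had a fold of 8.59, 9.73 and 10.5 in WT and of 5.66, 7.31 and 5.75 in CREBBP-KO libraries. The groups did not overlap, and its shift was -1.03 (SE 0.25, limma adjusted p = 0.00297), a call kept under every alternative that scored it. Its neighbour chr8:127337014-127344143 was far stronger, at a fold of 20 to 25.3 in the WT and of 21.7 to 22.1 in the CREBBP-KO libraries. That one overlapped between groups and did not pass (shift -0.36, SE 0.17, limma adjusted p = 0.0949), and without WT 3 its adjusted p was 0.031.

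The lower pair between the block and MYC lay outside annotated genes, 244.9 and 227.5 kb upstream of the MYC start. At chr8:127488399-127492751 the fold was 10.2, 13.3 and 10 in WT and 7.79, 7.36 and 6.95 in CREBBP-KO libraries, and the shift was -0.90 (SE 0.22, limma adjusted p = 0.00307). At chr8:127504978-127510837 the fold was 15.2, 13.3 and 14.4 in WT and 11.5, 10.1 and 9.98 in CREBBP-KO libraries, and the shift was -0.73 (SE 0.17, limma adjusted p = 0.00254). In both, all CREBBP-KO libraries were below all WT libraries, and the call of the second was lost when ranked by -log10 p.

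Furthest upstream, 907 kb before MYC, 1 of 3 tested intervals rose. This interval, chr8:126821022-126836314 in an intron of PCAT1, is 15.3 kb long. Its fold was 15.2, 18.5 and 13.6 in WT and 25.6, 24.6 and 26 in CREBBP-KO libraries, without overlap, and its percentile was 94.3 ± 3.05 and 98.8 ± 0.286 (SD, n = 3). The shift of 0.71 (SE 0.18, limma adjusted p = 0.00376) was not seen when peaks were ranked by -log10 p (shift 0.02, limma adjusted p = 0.946; the range over the alternatives was 0.000113 to 0.946). Each WT library covered it with 1 peak and the CREBBP-KO libraries with 4, 2 and 2. Its covered length was smaller in all CREBBP-KO libraries, at 12444, 11011 and 12755 bp against 14697, 14804 and 14794 bp in WT. This held for 7.65 percent of all merged intervals. The highest summit lay in the same place in all WT libraries and CREBBP-KO 1, and over 5 kb away in the other CREBBP-KO libraries. Over the whole stretch upstream of the CCAT1-CASC8 block, peaks covered 44.5 ± 0.847 kb in WT and 39.9 ± 1.95 kb in CREBBP-KO cells (SD, n = 3). The groups did not overlap there (exact permutation p = 0.1).

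Downstream of PVT1 lower calls outnumbered higher ones. Of 24 tested intervals 18 had a negative shift, 9 were called lower and 1 higher, and the median shift was -0.47. The lower calls were 37.5% of those tested, against 18.7 percent of all tested intervals. There were 5 lower and 3 higher on log2 fold, where 13.1 and 28 percent of all tested intervals were. Ranked by -log10 p there were 4 and 2, against 12.9 and 12.4 percent of all tested intervals. With GC and length trends removed there were 5 and 2, against 16.1 and 15.6 percent. The 9 lower and the 1 higher interval all lay within the CCDC26 record, where 16 intervals were tested with a median shift of -0.63. In 47.3 kb of its introns, from 1102 to 1150 kb downstream of the MYC start, 5 of 6 tested intervals were lower, a stretch picked after its values were seen. The covered length of the whole downstream stretch did not separate the groups, at 103.1 ± 7.5 kb in WT and 102.2 ± 6.28 kb in CREBBP-KO cells (SD, n = 3; exact permutation p = 0.7).

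The strongest of these, chr8:128860153-128869261, was an interval of the top percentile in WT cells. Its fold was 29.8, 26.6 and 28.1 in WT and 22.5, 17.5 and 18.6 in CREBBP-KO libraries. The percentile was 99.7 in every WT library and 98.4, 95 and 95.4 in CREBBP-KO libraries, so the groups were apart. Its shift was -1.15 (SE 0.18, limma adjusted p = 6.92e-05). On either side of it, chr8:128837732-128841629 had a fold of 7.31, 7.44 and 6.38 in WT and 3.12, 4.72 and 5.25 in CREBBP-KO libraries (shift -1.42, SE 0.33, limma adjusted p = 0.00197). At chr8:128873846-128875187 the fold was 6.43, 6.3 and 5.57 in WT and 3.83, 4.22 and 3.74 in CREBBP-KO libraries (shift -1.24, SE 0.29, limma adjusted p = 0.00218). Neither overlapped between groups. This pair passed the fold filter through WT libraries alone, which favours a fall, and with no fold filter the shifts were -1.01 and -0.91 (limma adjusted p = 0.0115 and 0.0101). All 3 calls held under every alternative that scored them.

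At chr8:128733327-128735866, 999.2 kb downstream of the MYC start, the fold was 14.2, 15.1 and 11.6 in WT and 8.88, 7.02 and 7.53 in CREBBP-KO libraries. The groups did not overlap (shift -1.18, SE 0.21, limma adjusted p = 0.000209). A weaker fall at chr8:129003915-129006424 (fold 8.79, 6.24 and 5.64 in WT and 4.54, 4.53 and 5.86 in CREBBP-KO libraries) overlapped between groups. It entered the test through WT libraries alone, and its call (shift -0.90, SE 0.31, limma adjusted p = 0.0272) was lost, or the interval not scored, in 9 alternatives. Among these were no fold filter (0.0682) and leaving out WT 1 (0.201), CREBBP-KO 1 (0.0702) or CREBBP-KO 2 (0.0811), in a range of 0.0133 to 0.201. The remaining 4 lower intervals over CCDC26 had shifts between -0.86 and -0.56. Their percentiles overlapped between groups, although in 3 of them the fitted rank scores did not. In order of position their calls were lost, or the interval not scored, in 7, 9, 2 and 8 of the alternatives.

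The single rise over CCDC26 lay at its far end, 1724.5 kb downstream of MYC, at chr8:129458702-129461214. There the fold was 5.84, 9.13 and 9.87 in WT and 15.9, 14.7 and 13.2 in CREBBP-KO libraries, all above WT (shift 0.97, SE 0.24, limma adjusted p = 0.00375), and the call held under every alternative that scored it. Next to it an interval at 1722.3 kb was marked in CREBBP-KO libraries alone, at a fold of 3.69, 3.97 and 3.36.

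Other high intervals downstream of PVT1 did not pass. In an intron of LINC00824, 805.5 kb from the MYC start, chr8:128537629-128544141 had a fold of 24.9, 24.5 and 27.4 in WT and 25.9, 26.9 and 26.4 in CREBBP-KO libraries. Its shift of -0.28 did not pass (SE 0.17, limma adjusted p = 0.202) and its sign turned on log2 fold and when ranked by -log10 p. In an intron of CCDC26, chr8:128784678-128790594 had a fold of 20.8 to 23.6 in the WT and of 21.5 to 23.8 in the CREBBP-KO libraries, which overlapped (shift -0.24, SE 0.16, limma adjusted p = 0.261), and its sign turned on log2 fold.

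The other 207 intervals were not tested. Of these, 43 had a peak in all 6 libraries but folds between 2.11 and 6.94. By percentile, all CREBBP-KO libraries were above all WT libraries in 11 of them (25.6%), against 18.4 percent of the 17323 such intervals of the genome, and below in 1 (2.33%), against 5.81 percent, and the other 31 overlapped. A further 90 had a peak in 2 to 5 libraries and 74 in 1 library, with folds up to 6.06. Marked in every CREBBP-KO library but no WT library were 9 intervals (3.38%), against 2.66 percent of all merged intervals, and 0 showed the reverse, against 1.08 percent. Of these 9, 5 lay in PVT1, which holds 77 of the 266 intervals of the window. The highest, chr8:128590831-128592277, 856.1 kb downstream of the MYC start, had a fold of 5.65, 4.72 and 4.38. The other 8 had folds of 2.05 to 4.38. An absent peak means only that none was called, since the lists start at a q-value of 0.05.

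Most other gene starts of the window carried little H3K27ac. At LRATD2, the protein-coding gene at the upstream end, a peak was called in WT 2 alone among WT libraries (fold 2.86) and in all 3 CREBBP-KO libraries (4.39, 6.06 and 5.02). The reverse held at the start of CASC8, with 4.68, 5.95 and 5.05 in WT and 3.54 in CREBBP-KO 2 alone. POU5F1B is a retrogene of the stem cell factor OCT4, and its gene record spans chr8:127322183-127420066. At the 5′ end of this long record peaks were called in CREBBP-KO libraries alone (2.65, 2.82 and 2.73). The highest summit lay in an intron of it. The start of PRNCR1 had a fold of 3.11, 2.8 and 3.94 in WT and 4.42, 3.72 and 4.34 in CREBBP-KO libraries, and its percentiles did not overlap (exact permutation p = 0.1). By the highest peak of its whole merged interval, with a fold of 4.15, 3.41 and 3.94 in WT, the percentiles did overlap. CCAT2, in the segment that carries a colorectal cancer risk variant, had 5.41, 4.41 and 4.59 in WT and 3.52, 4.22 and 3.82 in CREBBP-KO libraries, and its percentiles overlapped (exact permutation p = 0.3). PCAT1, LINC00824 and CCDC26 had no peak at their start in any library. CCAT1, PCAT2 and CASC21 were placed by their span alone.

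The partners and antagonists of MYC were read at their own promoters. MAX is the obligate partner of MYC, the MXD proteins, MNT and MGA compete for MAX, and MLX with its partners forms a parallel branch. Of 13 genes of this network 9 were tested, and 4 (MYC, MAX, MXD4 and MGA) were higher in CREBBP-KO cells by limma and none lower. Among all 9126 tested intervals at protein-coding starts 26.9% were higher and 7.71% lower. The median shift was 0.33 in the network, 0.22 at protein-coding starts and 0.02 over all tested intervals. MGA had a fold of 3.62, 5.84 and 4.28 in WT and 8.3, 6.3 and 8.15 in CREBBP-KO libraries (shift 1.13, SE 0.32, limma adjusted p = 0.00806). MXD4 had 14.4, 13 and 14.2 in WT and 23.1, 18.3 and 21.1 in CREBBP-KO libraries (shift 0.55, SE 0.17, limma adjusted p = 0.0146). MAX had 11.3, 9.59 and 12.5 in WT and 13.6, 16.9 and 17.8 in CREBBP-KO libraries (shift 0.49, SE 0.18, limma adjusted p = 0.037). In each of the 3 all CREBBP-KO libraries were above all WT libraries. MGA reached the fold of 5 through CREBBP-KO libraries alone, and with no fold filter its shift was 0.84 (limma adjusted p = 0.016). Without CREBBP-KO 1, MXD4 and MGA did not pass (0.103 and 0.0504), and MAX did not pass without WT 1, WT 2, CREBBP-KO 2 or CREBBP-KO 3 (0.0651 to 0.155). With GC content and length accounted for none of the 9 passed, and MXI1, MXD3, MNT and MLX had negative shifts (-0.28 to -0.18).

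**Figure D5:**
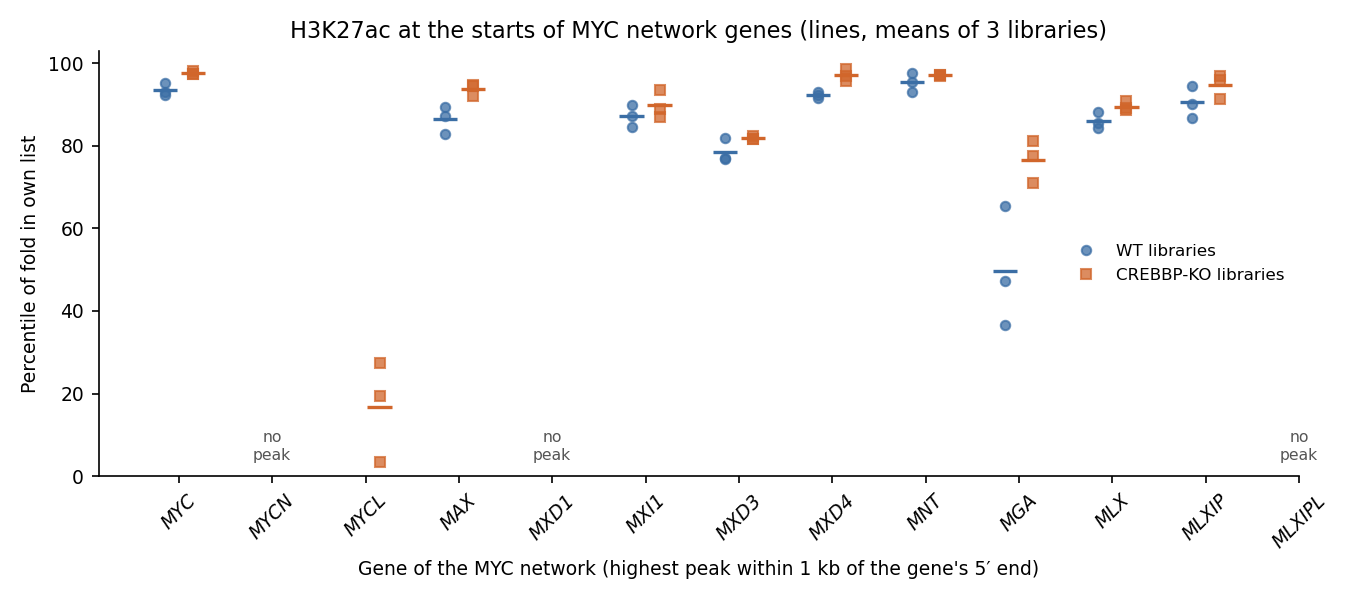
Percentile of the fold in its own list of the highest peak within 1 kb of the 5′ end of each of 13 MYC network genes, with a point per library (circles WT, squares CREBBP-KO) and lines for means of 3 libraries. All CREBBP-KO libraries sit above all WT libraries at MYC, MAX, MXD4 and MGA, among others, and MYCN, MXD1 and MLXIPL have no peak in any library.

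MXI1, MXD3, MNT, MLX and MLXIP did not pass, with shifts of 0.02 to 0.33. MYCL, the paralogue of MYC known from lung cancer, had a weak peak in the CREBBP-KO libraries alone, at a fold of 2.99, 3.21 and 2.37. MYCN, MXD1 and MLXIPL had none in any library. By the mean absolute difference of percentiles over the 6 libraries, the promoters nearest to that of MYC among 12606 protein-coding genes were those of SYDE2 (0.5 points) and RASGRP3 (0.506). All libraries of a genotype are shared by these genes, so the likeness is a description.

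Sequence features were read from the reference for the 59 tested intervals. Their median GC content was 41.2%, against 44.1% over all tested intervals, and their median length 4353 bp, against 3173 bp. Higher intervals of the window were richer in GC (47.2%) and longer (10393 bp) than lower ones (39.8% and 3880 bp). Over all tested intervals the higher ones also had more GC (48.4%) than the lower ones (39.9%), though not more length (2989 and 3148 bp). With GC and length accounted for, 7 intervals of the window (11.9%) were higher and 9 (15.3%) lower, against 15.6 and 16.1 percent of all tested. Of these, 6 and 9 were among those above.

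Short motifs were searched on both strands within 150 bp of the highest summit, that is in 300 bp. The AP-1 motif TGANTCA was present in 13 of 59 (22%), against 8.8% of all tested intervals. It was in 0 of the 7 higher and 2 of the 14 lower ones, against 6.49% and 11% genome-wide. The TEAD motif GGAATG was present in 15 (25.4%), against 14.6%. It was in 3 of the higher and 2 of the lower, against 13.2% and 15.4%. The E-box CACGTG, which MYC and MAX bind, was present in 3 (5.08%), against 3.59%. It was in 2 of the higher and 0 of the lower, against 3.8% and 3.17%. All tested intervals include 9126 at protein-coding starts, and the part of this in the differences was not tested. The TCF/LEF motif ATCAAAG, the motif of the Wnt pathway's factors, was present in 2 (3.39%), against 3.4%, and the full CRE TGACGTCA in 0, against 0.198%. These are matches of letters in a window and describe no binding.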

How the data were processed

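H3K27ac ChIP-seq libraries, 3 of WT and 3 of CREBBP-KO cells, were used, with groups taken from the labels. The 2 input libraries were not analysed here. The authors aligned reads to hg38 with BWA in an nf-core pipeline and called narrow peaks per library with MACS2; the paper describes downsampling of reads, and whether the lists precede it is not stated. In the deposited lists a peak has a fold, the ratio of its summit to the background around it. They also hold a -log10 p, a -log10 q, both as deposited by the authors, and a deposited score made from q, which was left aside. The lists give no read counts, so depth is unknown, and no counting interval was computed. The study's test on reads (DiffBind) was not repeated. It used other and stricter cut-offs, and the paper reports that it left most H3K27ac peaks unaffected. For the global level of H3K27ac in these KO cells the paper reports a moderate reduction of borderline significance by mass spectrometry. By immunofluorescence it reports a small but significant decrease.

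Peaks were assigned to the window by summit, and intervals by centre. An interval was tested where it had a peak in all 6 libraries and, after the filter of the study, a fold of at least 5 in all 3 libraries of a genotype. Ranks of the highest fold were turned into normal scores in each library and fitted with limma 3.58.1 (R 4.3.3; eBayes with a trend) to give the shift of CREBBP-KO from WT, adjusted by Benjamini-Hochberg over all tested intervals. For single values, the 2 genotypes were compared with exact permutation tests, two-sided (scipy 1.17.1). bedtools 2.31.1 gave the same number of merged intervals. Genes came from GENCODE release 44, and CCAT1, PCAT2 and CASC21 from RefSeq records without a strand. The furthest peak of 24 of 24 chromosomes lay within the reference length. On simulated data of 34864 intervals, a shift of 1, 2 or 3 planted in 200 was recovered in 14, 89 and 99.5% of them, with at most 7 false calls. In the data 6472 intervals were called higher and 6533 lower, far more than were planted. The adjustment therefore differs, and these rates do not carry over to the calls reported here.

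Named were intervals at gene starts of the window, the 8 with the highest mean percentile, up to 6 with the largest called shift in each direction, up to 5 marked in 1 genotype alone, the MYC network, and the 3 promoters most like that of MYC, of which 1 is not reported here. The remaining called intervals and the 48.9 kb interval in PVT1 were named after their values were seen. The window, its genes and all lists were chosen with earlier results of these data known. Alternatives changed the ranking, the filter, the lists, the scale, the fit, the replicate block and the libraries used; GC and length trends and the covered length of PVT1 were added after the data were seen.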

Additional observations from a re-analysis of the deposited data

How the results depend on the processing

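The depth behind the lists is unknown, an absent peak is only one that was not called, and 3 libraries against 3 cannot reach an exact p under 0.1, so the permutation tests say nothing on stability. The covered length of the window (a difference of 32.0 to 53.8 kb), that of PVT1 (55.1 to 62.2 kb) and the percentiles of the MYC and PVT1 starts kept their direction under every alternative run. A summit within 1 kb of the PVT1 start gave no value, as a library lacks one. The difference in peak number turned to -12.7 with lists of equal length. Ranked by -log10 p the window had 13 calls, 12 of them among the 21 reported. Of the 13, 6 were lower (10.2% of the window's tested intervals, against 12.9 percent of all tested). On log2 fold 13 were higher and 8 lower (7 and 8 of them among the 21). With GC and length trends removed 9 were lower (15.3%, against 16.1 percent). Shifted intervals were 10 to 16 lower (15.9 to 25%) and 6 to 8 higher (9.84 to 13.6%) as each library was left out. Of all tested intervals, 14.9 to 17.4 percent were lower and 13.7 to 18.7 percent higher in these fits. Intervals marked in CREBBP-KO alone numbered 5 and in WT alone 4 both at a -log10 q of at least 5 and with lists of equal length. Leaving out a library gave 12 to 20 intervals marked in 1 genotype alone, 11 to 15 in CREBBP-KO and 0 to 5 in WT, the most without WT 2. The MYC network had 2 higher calls when ranked by -log10 p, and 2 to 4 as each library was left out (2 without WT 2, CREBBP-KO 1 or CREBBP-KO 2). Shifts that did not pass turned sign at 395 kb upstream of MYC (0.07) and at the 3′ end of PVT1 (-0.07) when ranked by -log10 p, in LINC00824 (0.05 when ranked by -log10 p and 0.05 on log2 fold), and 1052 kb downstream on log2 fold (0.05). The cause of these changes was not tested. Over the 20 named intervals and 11 alternatives, 190 values kept direction and call, 23 lost the call, 2 gained it and 5 turned sign. Deviations of same-numbered libraries correlated at r of 0.011, 0.014 and 0.028, and those of other pairs at -0.025 to 0.012. Whether same-numbered libraries share a preparation is not given in the labels and was not tested. With the replicate block 7 intervals were higher (11.9%) and 16 lower (27.1%), where 18.7 and 18.8 percent of all tested intervals were. That is 23 in all, and no named call changed.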
